A study of Drosophila melanogaster with 6 samples.

Results

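H2Av regions at the telomere-side ends of 4 chromosome arms of Drosophila melanogaster were examined, that is, the 2 Mb of 2L, 3L, 3R and X that lie farthest from the centromere. A region was a member when its midpoint fell within base 1 to 2000000 of 2L, 3L or X, or within base 25905054 to 27905053 of 3R, on FlyBase release 5. Of the 5905 regions in the combined list, which the authors deposited beside those of the single replicates, 340 were members, with 69 on 2L, 94 on 3L, 72 on 3R and 105 on X. The 3 replicate lists held 283 of 4403, 301 of 5016 and 271 of 4763 regions in the same windows. Each end was set against the interior of its own arm, which is the arm without the 2 Mb at either end.

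The regions came from chromatin immunoprecipitation followed by sequencing (ChIP-seq) with an antibody to H2Av, called H2AV 9751 in the labels, on embryos of the wild-type strain Oregon-R aged 14 to 16 h and fixed with 1.8% formaldehyde. There are 3 ChIP libraries, each with 1 list of regions, and 3 input libraries (chromatin sequenced without the antibody), for which no list was at hand. Embryos were pooled from population cages, per the labels, so the lists average over many animals and over all cell types of the late embryo.

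H2Av is the only H2A variant of the fly and is known from nucleosomes near the starts of active genes, from heterochromatin and, in its phosphorylated form, from DNA breaks. Fly chromosomes end in arrays of the retrotransposons HeT-A, TAHRE and TART, which stand in for the telomerase repeats of other animals, with subtelomeric satellite repeats next to them. Telomeric and subtelomeric repeats can silence genes placed in or beside them, and the unique sequence farther in carries ordinary genes. The tip of an arm means here the outermost base that release 5 gives for it, which is an end of the assembly and need not be the physical end of the chromosome. Without a genome or gene annotation of release 5 at hand, regions carry positions as names, and no gene or sequence is given for them.

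The lists hold no read numbers and the depth is unknown, so the precision of a single region is unknown as well. Values are therefore given as mean ± SD over the 3 replicate lists, and nothing in the labels says that the replicates were separate collections of embryos. Differences between an end and its interior were tested by flipping their signs over the replicates, an exact permutation test (two-sided), whose smallest p with 3 replicates is 0.25. It makes no call here. The SD of a difference shows how alike the replicate lists were, and not how much stretches within an arm differ. A difference that is large beside its SD therefore need not set an end apart from its arm. For the covered share, stretches of the same length inside the arms are given below as a scale. A share of bases inside regions describes what the caller reported and not an amount of H2Av.

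As a whole the 4 ends were covered by regions about as much as the interiors of the same arms, but the ends differed among themselves. Regions held 17.4% ± 1.05 of the bases of the ends and 16.8% ± 1.11 of the interiors (SD, n = 3). The end of 3L held the most, with 20.5%, 22.6% and 21.9% of its bases inside regions in replicates 1 to 3, against 14.7%, 16.5% and 16.3% in the 3L interior. The end of 3R held the least, with 10.4%, 12.2% and 11.7%, against 15.6%, 17.7% and 17.6% in the 3R interior. Thus the 3 values of each of these ends and the 3 values of its interior did not overlap, and the 2 ends departed from their interiors in opposite directions.

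As a ratio to the interior of its own arm, the share of the 3L end was 1.37-fold (log2 ratio 0.45 ± 0.028, SD, n = 3) and that of the 3R end 0.673-fold (log2 ratio -0.57 ± 0.032). X lay between them, with 19.2%, 21.2% and 21.5% at the end and 17.4%, 19.9% and 19.8% in the interior. Its ratio was 1.09-fold (log2 0.12 ± 0.025, SD, n = 3), above 0 in 3 of 3 replicates although the values of the end and of the interior overlapped. Among regions in the upper 50% of scores, the log2 ratio of X was 0.03 ± 0.038 and no longer had 1 sign in all replicates. The end of 2L, with 16.0% ± 0.993 against 15.6% ± 0.940 in its interior, had a log2 ratio of only 0.04 ± 0.0064, and in the combined list that ratio was -0.0039. The exact permutation p was 0.25 for each of the 4 arms.

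The order of the ends was 3L, X, 2L and 3R in every replicate. Of the 6 pairs of ends, 3L and X were the closest, apart by 1.00 ± 0.564 percentage points of covered bases (SD, n = 3). The difference of 2L minus X was -4.61 ± 0.339 points, and that of 2L minus 3R 4.63 ± 0.211 points. The step from 3L to X is thus small beside the others. All 6 differences had the same sign in 3 of 3 replicates, with an exact permutation p of 0.25 in each.

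Stretches of the same length inside the arms give a scale for these departures. When each interior was cut into windows of 2 Mb, the 3L end lay above 8 of 10 windows of 3L, which ran from 11.6 to 24.3%. On X the end lay above 7 of 9 windows (15.1 to 23.3%), and on 2L above 4 of 9 (4.90 to 22.9%). The 3R end lay above 1 of 11 windows of 3R, whose values ran from 10.7 to 27.0%. No end was outside the range of its own arm's windows.

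**Figure D1:**
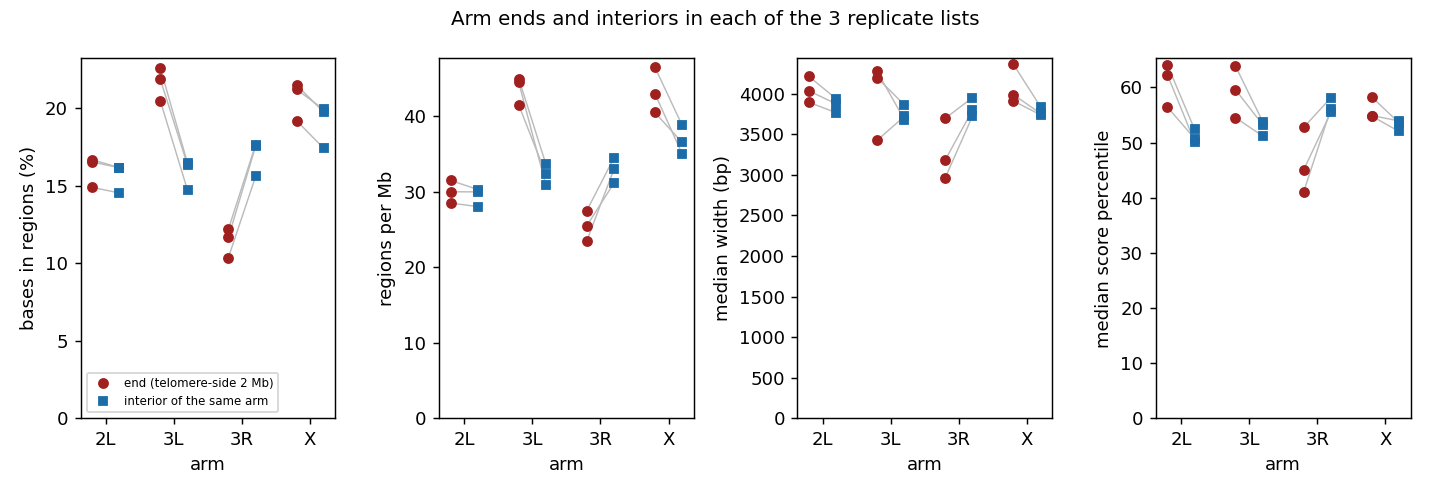
Covered share (%), regions per Mb, median width (bp) and median score percentile of the arm ends (red circles, left) and of the interior of the same arm (blue squares, right) on 2L, 3L, 3R and X; each point is 1 of 3 replicate lists and a line joins the values of a list. The 3L end lies above its interior in share and number in all 3 lists, and the 3R end lies below its interior in all 4 panels.

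The number of regions differed between the ends more than their width did. Per Mb, the 3L end had 43.7 ± 1.89 regions against 32.3 ± 1.39 in its interior (log2 ratio 0.44 ± 0.085, SD, n = 3), and the X end had 43.3 ± 3.01 against 36.8 ± 1.91 (0.24 ± 0.077). On 2L the end and the interior had 30.0 ± 1.5 and 29.4 ± 1.22 (0.03 ± 0.028). The 3R end had 25.5 ± 2.00 against 32.9 ± 1.68 (-0.37 ± 0.11). Each ratio kept its sign in 3 of 3 replicates, although on 2L it was about as large as its SD.

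Median widths at 3 of the ends were close to those of the interior, and regions of the 3R end were narrower when all of a list were taken. The median width on 3R was 3182, 2963 and 3696 bp at the end, against 3797, 3722 and 3951 bp in the interior (log2 ratio -0.23 ± 0.12, SD, n = 3). Among the highest-scoring 50% of each list that ratio was -0.04 ± 0.014. On 2L, 3L and X the ends had medians of 4047 ± 160, 3966 ± 470 and 4088 ± 242 bp, against 3859 ± 86.6, 3755 ± 95.5 and 3779 ± 53.5 bp. The log2 ratio on 3L was 0.07 ± 0.17, with replicate 1 below 0 and replicates 2 and 3 above, so no direction stood out there. On X the direction rested on the use of the median, and the ratio of mean widths was -0.12 ± 0.080.

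Scores are the authors' own values of their regions, and the scale may differ between lists, so they were turned into percentiles of their own list. Regions of the 3R end ranked low, with a median percentile of 41.0, 45.0 and 52.7, against 56.1, 55.5 and 58.1 in the interior of 3R. The difference was -10.3 ± 4.87 points (SD, n = 3). Those of the 2L end ranked above their interior by 9.86 ± 3.61 points and those of the 3L end by 6.60 ± 3.36 points, but with only the highest-scoring 50% of each list the difference was -2.37 ± 8.18 points on 2L and 1.24 ± 5.76 on 3L. On X the difference was 2.81 ± 1.86 points, and 0.506 ± 0.403 points with the first 100 kb left out. The 3 values of the 3R end thus lay below the 3 of its interior, and replicate 3 came nearest to it.

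In steps of 100 kb from the tip, each end was a chain of well covered steps with sparsely covered or empty ones between them, and the replicates placed them alike. Replicates compared in pairs over the 20 steps of an end had Spearman correlations of 0.984 to 0.986 on 2L, 0.991 to 0.995 on 3L, 0.959 to 0.986 on 3R and 0.965 to 0.979 on X. These are descriptions over steps of the same libraries. Of the 80 steps, 11 (13.8%) had no region in any replicate, against 18.2% of the 818 steps of the interiors. A mean share of at least 40% was reached in 8 of 80 steps (10.0%), against 9.05% of interior steps. Both shares lay near those of the interiors, and neither is read as a feature of the ends.

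**Figure D2:**
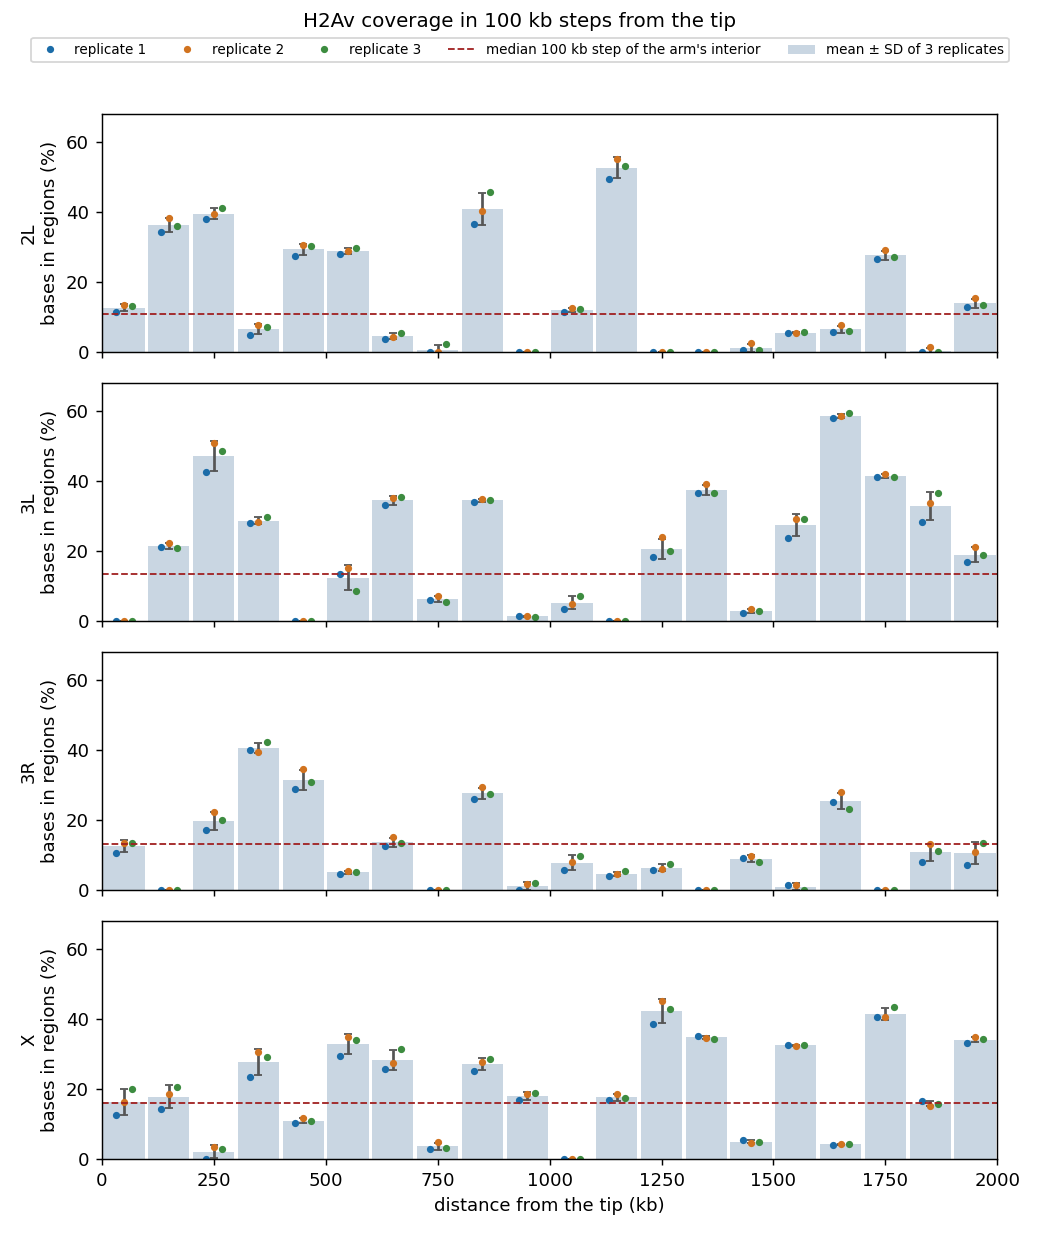
Share of bases inside H2Av regions (%) in 100 kb steps of distance from the tip (kb) at the ends of 2L, 3L, 3R and X; bars are means and whiskers SDs of 3 replicates, dots the replicates, and the dashed line is the median step of the arm's interior. The highest step was 58.6% on 3L, and the outermost step of 3L and the second step of 3R are empty.

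On 2L the outer part of the end was the more covered one. The outer 1 Mb had 18.5%, 20.3% and 21.2% of its bases inside regions and the inner 1 Mb 11.3%, 13.0% and 11.9%, a log2 ratio of 0.73 ± 0.098 (SD, n = 3). The outermost 0.5 Mb held 25.0% ± 1.41, which was 1.60-fold the share of the 2L interior. Apart from a first step of 12.8% ± 1.04, it comprised a block from 100 to 300 kb, with 36.3% ± 2.02 and 39.6% ± 1.51 in its 2 steps, a step of 6.75% ± 1.48 and a step of 29.5% ± 1.60. The comparison of 2L with its interior thus depended on the length taken as the end, since over the whole 2 Mb the shares were close.

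The most covered step of 2L lay farther in, from 1100 to 1200 kb, with 52.6% ± 3.01 (SD, n = 3), above 179 of the 190 interior steps of 2L. Within it began the longest stretch of the 2L end without a region in any replicate, 305 kb from 1186030 to 1491403. The combined list covered 1620 bases of that stretch. Of the 3 steps of 2L without a region in any replicate, 2 were inside it and the other ran from 900 to 1000 kb.

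3L showed the opposite slope. Its outer 1 Mb had 18.7% ± 0.805 of bases inside regions and its inner 1 Mb 24.6% ± 1.45, with every replicate lower in the outer part, a log2 ratio of -0.39 ± 0.049 (SD, n = 3). The first 100 kb held no region in any list, the combined list included. From 1500 kb inward lay 5 steps in a row above the median interior step of 3L (13.4%), with 27.4% ± 3.13, 58.6% ± 0.624, 41.5% ± 0.455, 32.9% ± 4.12 and 19.0% ± 2.14. The second of these, from 1600 to 1700 kb, was the most covered step of all 4 ends and lay above 203 of 205 interior steps of 3L. The steps from 400 to 500 kb and from 1100 to 1200 kb were empty, and the longest stretch without a region in any replicate was 197 kb, from 1041570 to 1238359, with no base in the combined list either.

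The low share of the 3R end lay in its inner part. Its outermost 0.5 Mb held 19.4%, 21.9% and 21.3% of bases in regions, 1.23-fold the share of the 3R interior (log2 ratio 0.30 ± 0.019, SD, n = 3). The remaining 1.5 Mb held 7.36%, 8.95% and 8.46%, which was 0.486-fold (log2 ratio -1.04 ± 0.053). The direction of the comparison with the interior therefore turned with the length taken as the end. The outer part owed its share to the steps from 200 to 500 kb, with 19.8% ± 2.48, 40.6% ± 1.47 and 31.4% ± 2.87 (SD, n = 3), and the step from 100 to 200 kb was empty.

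Beyond 500 kb on 3R only 3 of 15 steps exceeded the median interior step of that arm (13.3%), at 600 to 700 kb with 13.7% ± 1.31, at 800 to 900 kb with 27.7% ± 1.60 and at 1600 to 1700 kb with 25.5% ± 2.34. Empty steps lay at 700 to 800, 1300 to 1400 and 1700 to 1800 kb. The longest stretch of the 3R end without a region in any replicate was 183 kb, from 26430353 to 26613446, of which the combined list covered 488 bases. Stretches of at least 50 kb without a region numbered 12 at the 3R end and took up 66.9% of it, against 56.1% of the 3R interior. At the other ends they took up less than in the interior, with 53.9% against 62.4% on 2L, 42.3% against 57.2% on 3L and 45.9% against 51.1% on X.

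X had the fewest empty steps of the 4 ends, 1 (1000 to 1100 kb), and 13 of 20 steps above the median interior step of X. Its outer 1 Mb had 16.1%, 19.4% and 20.0% of bases in regions and its inner 1 Mb 22.3%, 23.0% and 23.0%, a log2 ratio of -0.30 ± 0.14 (SD, n = 3). Replicate 1 lay lowest in the outer part, and in the first 200 kb its list held 7 regions, against 8 and 12 in replicates 2 and 3. The outermost 0.5 Mb held 15.0% ± 2.52, which was 0.783-fold the share of the X interior. A pair of steps were about equally covered and the highest of this end. They were 1200 to 1300 kb, with 38.5%, 45.2% and 42.8% in replicates 1 to 3, and 1700 to 1800 kb, with 40.6%, 40.4% and 43.4%, and the second was the higher one in replicates 1 and 3. The longest stretch without a region in any replicate was 158 kb, from 945737 to 1103593, of which the combined list covered 3859 bases.

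How near the tip the first H2Av region began was similar between replicates on 2L, 3L and 3R and differed between them on X. On X it began 11737, 5957 and 4917 bp from the tip in replicates 1 to 3, on 3R 8275, 8657 and 8800 bp, and on 2L 17374, 17160 and 17324 bp. On 3L the first region began 101803, 101110 and 101943 bp from the tip, several times farther in than on any other arm. The replicates lay within 214 bp of each other on 2L, 525 bp on 3R and 833 bp on 3L, but 6820 bp apart on X, where their range took in that of 3R. Whether reads can be placed in these outermost stretches at all was not analysed here, and a tip without regions is not shown to be a tip without H2Av.

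The first regions of the combined list were of middling rank, and their counterparts in the replicates varied. On 2L the combined region from 17174 to 24787 (7614 bp) was at percentile 59.4 of the combined scores. It overlapped 2, 1 and 2 regions of replicates 1 to 3, which covered 75.8%, 96.6% and 86.9% of it. The outermost of these in each replicate were at percentile 6.52, 50.1 and 31.5. On 3R the region from 27890167 to 27897130 (6964 bp) was at percentile 61.7, with 63.8, 63.7 and 53.1 for its counterparts in the replicates. The first region of 3L, from 101069 to 103991 (2923 bp), was at percentile 43.2, and its counterparts at only 12.6, 30.5 and 13.5. All 3 of these regions were thus found in every replicate.

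On X the outermost combined region, from 4581 to 8190 (3610 bp, percentile 42.1), was in replicates 2 and 3 and not in replicate 1. The first region shared by all lists on X was the third from the tip in the combined list, from 11090 to 13276, at percentile 78.7. Its counterparts were at percentile 74.8, 70.7 and 90.2, and the one in replicate 1 was the first region of that list.

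The end of X had the most regions among the strongest of the list. In the combined list, 36 of the 340 members (10.6%) scored above the 90th percentile of the list, against 10.4% of the 3187 regions of the interiors (10% of the whole list by construction). X had 15 of its 105 in this class, 2L 9 of 69, 3L 7 of 94 and 3R 5 of 72. In the replicate lists the class held 19.8%, 16.1% and 17.3% of the regions of the X end, all above the 11.4% ± 0.885 of the X interior, a difference of 6.34 ± 1.00 percentage points (SD, n = 3). At the 3L and 3R ends the class was smaller than in the interior, by a difference of -2.77 ± 1.46 and -2.69 ± 0.959 points, and at the 2L end it differed by -0.26 ± 0.486 points. Counted per Mb, however, strong regions at the 3L end numbered 2.50, 3.50 and 2.00, against 2.68, 3.02 and 2.87 in its interior, values that overlapped, so the lower share at the 3L end went with a larger number of regions. On 3R they numbered 2.17 ± 0.289 per Mb at the end against 3.68 ± 0.302, and on X 7.67 ± 0.764 against 4.18 ± 0.163, without overlap of end and interior on either arm. For these differences in share the exact permutation p was 0.25 on X, 3L and 3R and 0.5 on 2L.

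Members whose counterparts were above the 90th percentile in each of the 3 replicates numbered 23 (6.76%), against 5.46% of the interiors' regions. There were 12 of 105 on X (11.4%), against 5.63% in the X interior. On the other arms there were 4 of 69 on 2L (5.80%, against 5.80%), 3 of 94 on 3L (3.19%, against 4.11%) and 4 of 72 on 3R (5.56%, against 6.19%), all near or below their interiors. The highest-scoring combined region of each end was one of them. On X it lay from 1261101 to 1266209 (5109 bp), at percentile 99.2 of the combined list and 99.6, 99.6 and 99.7 of the replicate lists. On 3L it lay from 1773419 to 1778885 (5467 bp), at percentile 98.8, with 99.7, 98.3 and 99.8 in the replicates. That on X lay in one of the 2 highest steps of its end, and that on 3L in the step next to the highest.

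On 3R the highest-scoring region lay from 27560755 to 27574879 (14125 bp), at percentile 98.5, with 99.2, 97.5 and 98.6 in the replicates. It stood 330 kb from the tip, inside the most covered step of that end. The one on 2L, from 1161377 to 1175060 (13684 bp), was at percentile 98.4, with 98.5, 98.2 and 99.1 in the replicates, and also lay inside the most covered step of its end. In each end the highest-scoring region was also the highest-scoring one among the regions found in all 3 replicates.

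**Figure D3:**
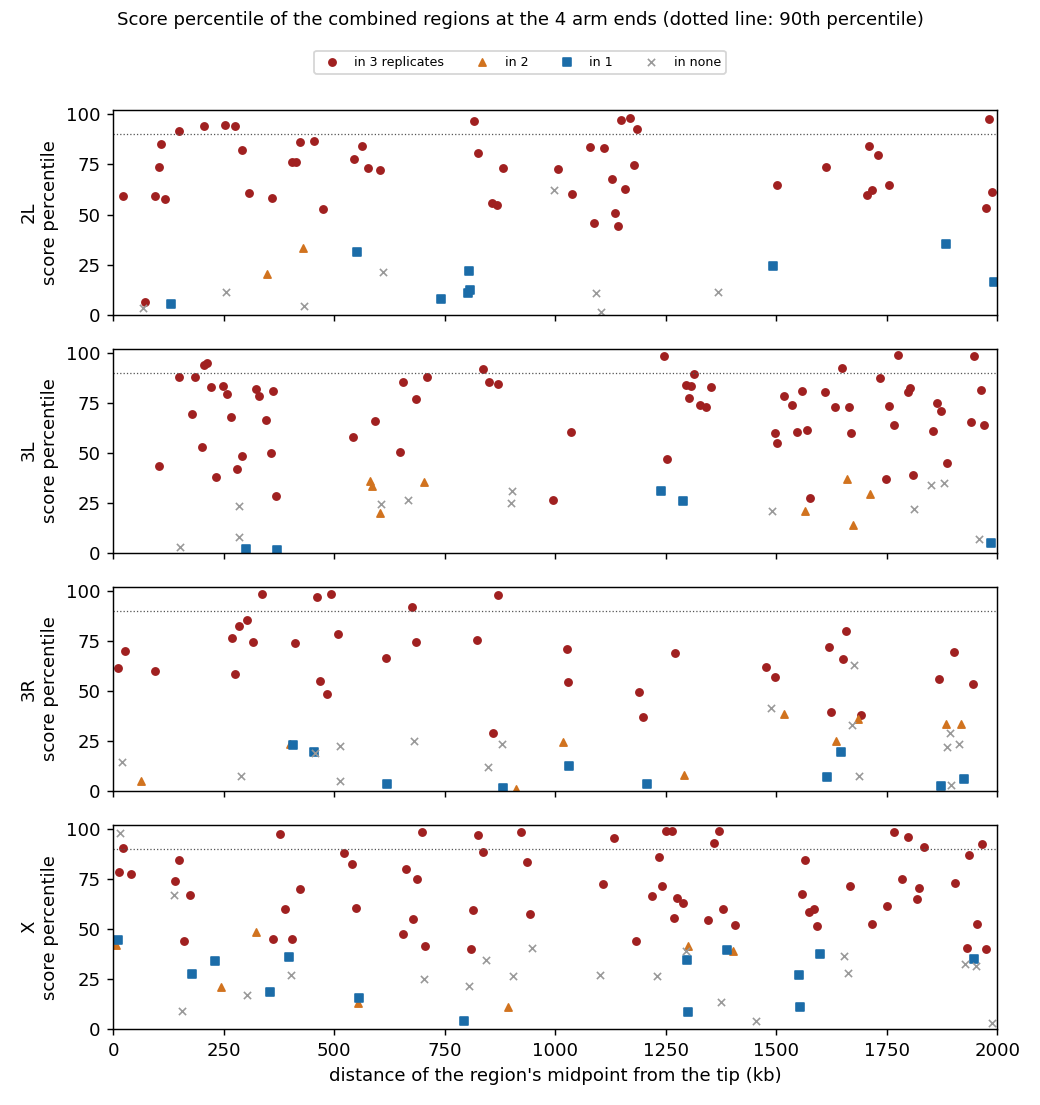
Percentile of the authors' score within the combined list against the distance of the region's midpoint from the tip (kb), for the 340 combined regions of the ends of 2L, 3L, 3R and X; symbols give the number of replicate lists with an overlapping region, and the dotted line is the 90th percentile. Of the 36 regions above the line, 35 were in all 3 replicates, against 327 of 331 (98.8%) in the interiors. The exception among the 36 lies near the tip of X.

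Broad regions were no more frequent at the ends than in the interiors. Of the 340 members 36 (10.6%) were at least 10 kb wide, against 12.7% of the interiors' regions and 12.1% of the whole list. The widest of each end were 23945 bp on X (509696 to 533640), 22337 bp on 3L (674575 to 696911), 21073 bp on 3R (27578348 to 27599420) and 19585 bp on 2L (140072 to 159656). The one on 2L was a single region in each replicate, 18142, 19453 and 19404 bp wide. That on X overlapped 3, 2 and 2 shorter regions in the replicates, the main one being 11095, 11472 and 11655 bp in width, and those on 3L and 3R were split in at least 1 replicate. The share of regions at least 10 kb wide was lower than in the interior in all 3 replicate lists at the X, 3L and 3R ends. The differences were -3.44 ± 0.857, -1.02 ± 0.763 and -0.97 ± 0.425 percentage points (SD, n = 3). At the 2L end the difference was -1.12 ± 2.04 points, with replicate 3 above 0.

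Reproducibility was near that of the interiors on 2L, 3L and X and lower on 3R. Of the 340 members, 219 (64.4%) overlapped a region in all 3 replicates, against 64.6% of the interiors' regions and 57.9% of the whole combined list. On 3R they were 36 of 72 (50.0%, 95% exact Clopper-Pearson interval 38.0 to 62.0), against 614 of 953 (64.4%, 61.3 to 67.5) in its interior. The shares were 72.5% (60.4 to 82.5) and 67.0% on 2L, 73.4% (63.3 to 82.0) and 66.6% on 3L, and 61.0% (50.9 to 70.3) and 61.0% on X, for the end and the interior. Intervals cover counting error only and treat regions as independent, which neighbouring regions may not be. On 2L, 3L and X the share of the interior lay inside the interval of the end, and on 3R it lay above it, although the intervals of end and interior met (up to 62.0 and from 61.3).

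Base by base, too, the 3R end was the least alike between replicates. The Jaccard index, which is shared bases over bases in either list, was 0.772, 0.769 and 0.826 at the 3R end for replicates 1 and 2, 1 and 3, and 2 and 3, against 0.822, 0.823 and 0.858 in the 3R interior. Each pair was lower at the end, by a difference of -0.045 ± 0.012 (SD over 3 pairs, which share lists), although the highest value of the end lay above the lowest of the interior. At the 3L end the index was higher than in the interior by 0.023 ± 0.012, at the 2L end by 0.017 ± 0.019 and at the X end by 4.5e-05 ± 0.0049. On 2L, 3L and X, too, the values of the end and of the interior overlapped. Of all bases in a region of any replicate, 70.1% were in regions of all 3 at the 3R end and 76.3% in the 3R interior.

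**Figure D4:**
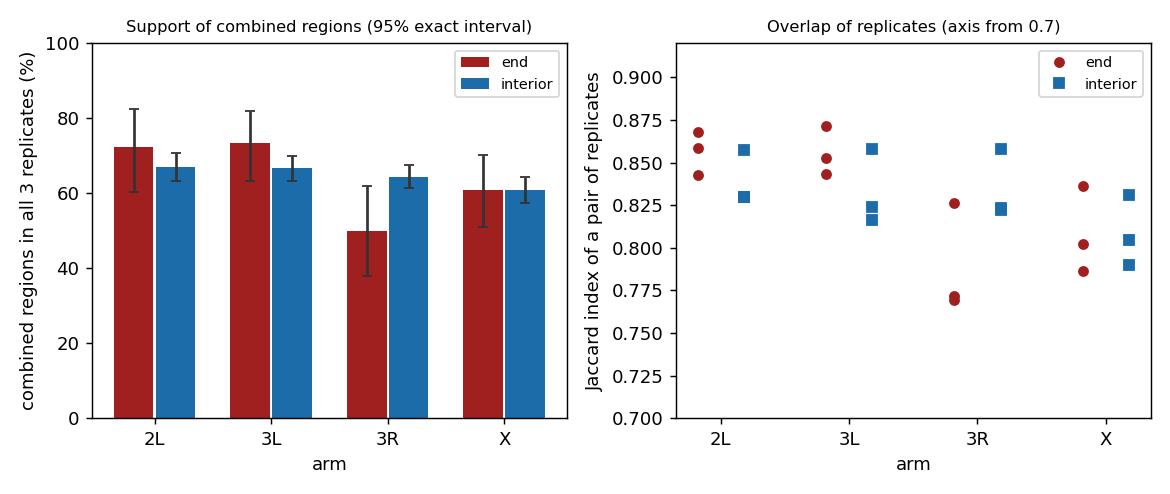
Left, share of combined regions that overlap a region in all 3 replicates (%), with 95% exact intervals, at the end (red) and in the interior (blue) of each arm. Right, Jaccard index of each of the 3 pairs of replicates, on an axis that starts at 0.7. The 3R end is at 50.0% and lies below its interior in both panels.

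In some pairs of replicates, the scores of shared regions were ranked less alike at the 2L, 3L and 3R ends than in the interiors. The lowest correlations were those of the 3R end in pairs with replicate 1. There the Spearman correlation was 0.709 and 0.639 for replicates 1 and 2 and 1 and 3, over 47 and 45 shared regions, and 0.915 for replicates 2 and 3. It was 0.852 to 0.918 in the 3R interior. On 2L it was 0.804 to 0.884 at the end and 0.884 to 0.936 in the interior, and on 3L 0.783 to 0.869 and 0.869 to 0.911. On X it was 0.877 to 0.917 at the end and 0.845 to 0.869 in the interior, so there the end was the higher one. Level with the interior were replicates 1 and 3 on 2L (both 0.884) and replicates 1 and 2 on 3L (both 0.869). Replicates 2 and 3 on 3R were nearly so (0.915 against 0.918). A pair shared 45 to 86 regions at an end, against 509 to 745 in an interior. These are descriptions over regions of the same libraries. Of the 57 regions of replicate 1 at the 2L end, 100% overlapped a region in both other replicates, against 94.2% in the 2L interior. For replicates 2 and 3 these shares were 85.7% and 88.3% at the 2L end, against 83.2% and 81.9%. At the 3R end they were 86.3%, 70.9% and 78.7% in replicates 1 to 3, all below the 94.8%, 80.7% and 83.5% of its interior. The 3L end was lower in replicate 1 (91.0% against 95.1%) and higher in replicates 2 and 3. On X the end was the higher one in all 3 lists.

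Members without support in the replicates were short and mostly of low rank. The 56 members that overlapped no replicate region were 16.5% of all, near the 15.7% of the interiors. They had a median width of 1305 bp and a median score percentile of 23.3, against 5504 bp and 72.6 for the 219 in all 3 replicates. They made up 4.72% of the members' summed length, and those in all 3 replicates 87.4%. On 3R the regions in no replicate were 16 of 72 (22.2%, exact interval 13.3 to 33.6), against 15.4% in its interior, and made up 8.27% of the length. Members in 1 or 2 replicates, 38 and 27 in number, were close to the unsupported ones, with median percentiles of 17.3 and 29.4. At the ends the narrowest combined regions were 1001 to 1003 bp wide, and the narrowest replicate regions 1302 to 1522 bp. The shortest combined regions thus had no replicate region of their own size, and what this did to their support was not tested.

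At the 2 Mb line no region crossed the border on any arm. The innermost members had their midpoint 1991 kb from the tip on 2L, 1985 kb on 3L, 1945 kb on 3R and 1988 kb on X. The nearest regions beyond the line lay at 2010, 2172, 2025 and 2009 kb.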

How the data were processed

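Bowtie 0.12.7 is the aligner named by the submitters' processing notes. The deposited lists give positions on FlyBase release 5, per the file headers, and 1 score for each region. The sources used here do not give the region caller, its thresholds, the way the combined list was made or the scale of the score, so scores were used only as percentiles within a list (ties at their mean rank). Caller settings can set the smallest width and join neighbours, which bears on numbers and widths. Controls, per the labels, were input 3 for ChIP 1, input 1 for ChIP 2 and input 2 for ChIP 3. Regions running past the end of a sequence (0, 1 and 2 in the replicate lists, 2 in the combined list) were ended there.

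Arm lengths came from the file headers. Regions were assigned by midpoint. Covered shares count bases inside regions, clipped to the window. Overlap required at least 1 base. Ratios of an end to its interior were taken within each list, as log2 ratios, and compared by exact two-sided sign-flip permutation tests over 3 replicates. Covered shares, overlaps and Jaccard indices were checked on simulated lists. Exact intervals are Clopper-Pearson (95%). Members, windows and comparisons were chosen with earlier results of these data known. The parts of 0.5, 1 and 1.5 Mb, windows of 2 Mb, the class above the 90th percentile (also per Mb), the width of 10 kb and stretches of 50 kb were added after the lists were seen. Named in each end were the first, highest-scoring, highest-scoring in all 3 replicates and widest combined regions, the longest stretch without a region in any replicate and the steps with the highest and lowest mean share. Alternatives were other end lengths, another interior, the highest-scoring 50% of each list, regions under 200 bp apart joined, assignment by any base, the first 100 kb left out, the combined list, mean width, rank of width, 50% overlap and leaving out each replicate. Python 3.11.15, numpy 2.4.6, scipy 1.17.1 and matplotlib 3.10.9 were used.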

Additional observations from a re-analysis of the deposited data

Results flagged for a closer look

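In covered share, regions per Mb and median score percentile, the 3R end lay below its interior in all 3 replicates. The other ends lay above theirs, 2L by a log2 ratio of only 0.04 in covered share. Not every measure set 3R apart. The share of strong regions was below the interior at the 3L end (-2.77 ± 1.46 points) as at the 3R end (-2.69 ± 0.959). The mean share of broad regions was lower than in the interior at every end. With an end of 0.5 Mb, 3R lay above its interior in covered share (log2 ratio 0.30) and X below (-0.35). For the covered share, the log2 ratio of end to interior differed by -0.69 between 3R and X (3R minus X), by 0.61 between 2L and 3R (2L minus 3R) and by 1.02 between 3L and 3R (3L minus 3R), with SDs of 0.057, 0.026 and 0.039 over 3 replicates. For regions per Mb the same differences were -0.60, 0.40 and 0.81, with SDs of 0.030, 0.090 and 0.053. For the median width they were -0.34 for 3R minus X and 0.29 for 2L minus 3R (SDs 0.056 and 0.093). For the median score percentile they were -13.1, 20.2 and 16.9 points, with SDs of 6.73, 2.38 and 1.52. Each of these 11 differences had an exact two-sided sign-flip permutation p of 0.25, the smallest value 3 replicates allow, so none passes a threshold of 0.05. The measures are not independent of each other, since more and wider regions give a larger share. Pairs of ends without 3R differed in covered share as well, with 1 sign in 3 of 3 replicates. The differences in log2 ratio were -0.41 for 2L minus 3L, 0.33 for 3L minus X and -0.08 for 2L minus X (SDs 0.027, 0.035 and 0.031).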

How the results depend on the processing

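No paired analysis was possible because no region lists of the input libraries, which carry the replicate numbers of the ChIP libraries, were at hand. Ends and interiors were compared within each list throughout. Of 180 alternative values, 14 equalled the reported one, 12 of them because assignment by any base moved no region. Of the other 166, 140 kept the sign of the difference or, for the first region, stayed within the SD. Those of the Jaccard index did both, and support in all 3 replicates has no SD. Where all 3 replicates share a sign, leaving 1 out cannot change it, so such values do not test the result. Nor can leaving out 1 of 3 lists move the mean distance of the first region by more than the SD. All first-region values counted among the 140 were of this kind, so they do not test it either. Leaving out the empty first 100 kb of 3L could likewise only raise its covered share. Log2 ratios of covered share changed sign on 3R with an end of 0.5 Mb (0.30 ± 0.019), on X with an end of 1 Mb (-0.043 ± 0.066) or 0.5 Mb (-0.35 ± 0.15), and on 2L with the centromere-side 2 Mb in the background (-0.044 ± 0.0080) or in the combined list (-0.0039). With that background regions per Mb on 2L had a log2 ratio of -0.088. Log2 ratios of width turned to -0.052 on 3L and -0.20 on X with the highest-scoring 50%, and to -0.12 on X with mean widths. The score percentile on 2L turned to -2.37 points with the highest-scoring 50%. The cause was not tested. For the difference in Jaccard index, the highest-scoring 50% gave -0.030 on 2L, -0.070 on 3R and 0.021 on X, and the background with the centromere side gave 0.038 on 2L and 0.049 on 3L. With 1 replicate left out, only 1 pair is left, and the differences were 0.0015 to 0.038 on 2L, 0.014 to 0.037 on 3L, -0.054 to -0.032 on 3R and -0.0033 to 0.0057 on X. Support of combined regions in all 3 replicates differed from the interior by -2.81 percentage points on 2L with the highest-scoring 50%, and on X by -2.91 to 0.357 points with 1 replicate left out. With the highest-scoring 50% the first region began 19.3 kb from the tip on 2L, 146 kb on 3L and 11.3 kb on X. Without replicate 1 the first region of X began 5.44 kb from the tip on average, against 7.54 kb with all 3. Depth is unknown, so what it limits cannot be given.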

Other observations

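A short region near the tip of X, from 14681 to 15737 (1057 bp), was at percentile 98.0 of the combined scores and overlapped no region of any replicate. It was narrower than every replicate region of the 4 ends and interiors, the narrowest of which had 1301 bp. It was the only member above the 90th percentile without a counterpart in a replicate, and in the interiors of the 4 arms 4 of 331 such regions had none. It was chosen after its values were seen. Whether its sequence is repeated elsewhere was not analysed here.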
